A study of Sus scrofa with 15 samples.

Results

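The collagens and fibrillar matrix genes form the scaffold of connective tissue, and in subcutaneous fat this scaffold separates the lobules and wraps every adipocyte and vessel. They were taken as a list of 54 genes by symbol on the Sscrofa11.1 assembly and matched to the Ensembl identifiers of the count files. Of the 54 listed genes, 51 had a row among the 30477 genes of the files and 50 passed the filter on low counts, which left 14918 genes. COL6A2, COL7A1 and LAMA2 were not analysed here because no row of the files could be matched to them. COL10A1, a short-chain collagen of hypertrophic cartilage, was below the filter with a single count in each of 3 libraries and none in the other 12.

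Fibrillar collagens are secreted as procollagens, trimmed and laid side by side into tension-bearing fibrils. Type I collagen is a trimer of COL1A1 and COL1A2 chains, type III is built from COL3A1, and type V chains start and limit the fibril. Basement membranes are thin sheets under endothelium and around each adipocyte, in which type IV collagen chains such as COL4A1 and COL4A2 form a network tied to laminins by nidogens and perlecan (HSPG2). Prolyl and lysyl hydroxylases (P4HA, PLOD) and the chaperone SERPINH1 act on the chains within the cell, and the lysyl oxidases (LOX, LOXL) crosslink collagen and elastin outside it. The genes were therefore described in 6 classes, namely 8 fibrillar collagens, 11 other collagens, 6 elastic fibre genes, 7 adhesive and matricellular glycoproteins, 14 basement membrane genes and 8 genes of crosslinking and collagen synthesis.

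The libraries came from backfat of Iberian pigs fed 3 diets, with 5 pigs and 5 libraries per diet. The control pigs (C) received a compound feed, the dry olive pulp pigs (DOP) a feed with 45% olive pulp, and the wet crude olive cake pigs (WCOC) a feed without by-product plus free access to a silage of 75% olive cake and 25% barley straw. All pigs were on their diet from 6.5 to 12 months of age and were then biopsied at a depth of about 2 cm. The compound feed was given at 70% of free energy intake in C and at 60% in DOP and WCOC, and each diet was fed in 1 pen, so diet cannot be told apart from pen or from feed allowance. The libraries were selected from the 44 pigs of the trial for quantity and quality of RNA.

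Between 22373715 and 34745218 read pairs per library were counted on genes. Levels are given as CPM, the count relative to the library's total, scaled by TMM, a normalization that aligns libraries on the bulk of their genes. By their run identifiers, the WCOC libraries and C 1 to C 4 were read on a flow cell named A here, and the DOP libraries and C 5 on another, named B. DOP and WCOC therefore shared no flow cell, and diet and flow cell cannot be told apart in that comparison, while DOP and C shared one only through C 5. The 9 measured adipocyte markers summed to between 16730 and 25780 CPM and were detected in every library. Skeletal muscle markers (8 of 14 measured) ranged from 21.3 to 57120 CPM in sum and exceeded 4000 CPM in C 3, DOP 2, DOP 4 and DOP 5. In bulk tissue, fewer cells of a type and less RNA per cell cannot be told apart.

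The sequences upstream of 2 chain pairs are shown first, because the chains of each pair moved together from pig to pig while the pairs did not follow each other. RefSeq places COL1A1 on chromosome 12 (minus strand, 26379087 to 26397180) and COL1A2 on chromosome 9 (plus strand, 74174484 to 74210407), both on Sscrofa11.1. The 250 bases before their annotated starts lie at chr12:26397181-26397430 and chr9:74174234-74174483 and are written 5′ to 3′ in the direction of transcription. Capitals mark matches on either strand to the CCAAT box, to the TATA box written as TATAAA, to the GC box written as GGGCGG or to the AP-1 motif written as TGANTCA. None of these letter strings contains another.

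COL1A1: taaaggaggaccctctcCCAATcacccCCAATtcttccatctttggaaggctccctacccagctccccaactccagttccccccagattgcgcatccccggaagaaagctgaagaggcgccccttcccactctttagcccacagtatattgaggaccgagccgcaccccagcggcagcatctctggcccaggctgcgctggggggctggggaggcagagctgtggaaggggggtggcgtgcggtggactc

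COL1A2: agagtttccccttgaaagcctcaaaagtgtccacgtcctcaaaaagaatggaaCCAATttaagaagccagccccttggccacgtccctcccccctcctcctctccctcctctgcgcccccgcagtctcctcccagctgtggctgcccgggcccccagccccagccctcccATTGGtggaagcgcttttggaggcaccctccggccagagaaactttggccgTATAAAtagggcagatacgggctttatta

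The COL1A1 and COL1A2 windows each held 2 CCAAT matches, and the COL1A2 window also held a TATAAA at position -29 from the start. The windows had 62.8% and 58.8% GC. Among 19559 pig promoter windows of the same length, 31.9% held a CCAAT, 9.77% a TATAAA, 45.9% a GGGCGG and 5.27% a TGANTCA. Of the 52 members with a RefSeq position, 14 held a CCAAT, 4 a TATAAA, 23 a GGGCGG and 3 a TGANTCA.

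COL4A1 and COL4A2 lie head to head on chromosome 11, COL4A1 from 76858332 to 76997409 on the minus strand and COL4A2 from 76996885 to 77161617 on the plus strand. Their annotated bodies overlap around the start sites. The 133 bases between the COL4A1 start and the nearest COL4A2 transcript start that faces away from it, chr11:76997410-76997542 on the plus strand, had 78.9% GC and held 1 CCAAT and 2 GGGCGG matches, again in capitals.

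COL4A1 to COL4A2: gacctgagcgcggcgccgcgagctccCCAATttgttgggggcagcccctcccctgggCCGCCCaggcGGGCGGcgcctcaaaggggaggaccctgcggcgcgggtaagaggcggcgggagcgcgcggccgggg

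A match describes these letters only, and none of the windows was measured for binding in these data.

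The matrix genes took between 3.81% and 6.16% of all counts on genes in a library. Per kilobase of the longest RefSeq mRNA, SPARC, a collagen-binding glycoprotein, was the highest at 3040 CPM per kb over the 15 libraries, followed by COL3A1 at 2860. COL1A1 at 919 and COL1A2 at 604 CPM per kb came next, then COL4A2 at 404, COL4A1 at 342 and SERPINH1 at 310. In C the levels of SPARC and COL3A1 were 3080 ± 494 and 2980 ± 315 CPM per kb (mean ± SD, n = 5). In DOP they were 3650 ± 557 and 3140 ± 416 CPM per kb. In WCOC the order was turned, with 2380 ± 588 and 2470 ± 395 CPM per kb. A difference between SPARC and COL3A1 within libraries was not tested. COL6A1 has no position under this symbol in RefSeq and stayed out of this ranking. The lowest of the genes tested were FBN2, COL4A3, COL8A2 and COL4A4, all below 1 CPM per kb. The CPM of 12 members in every library is plotted by diet.

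**Figure D1:**
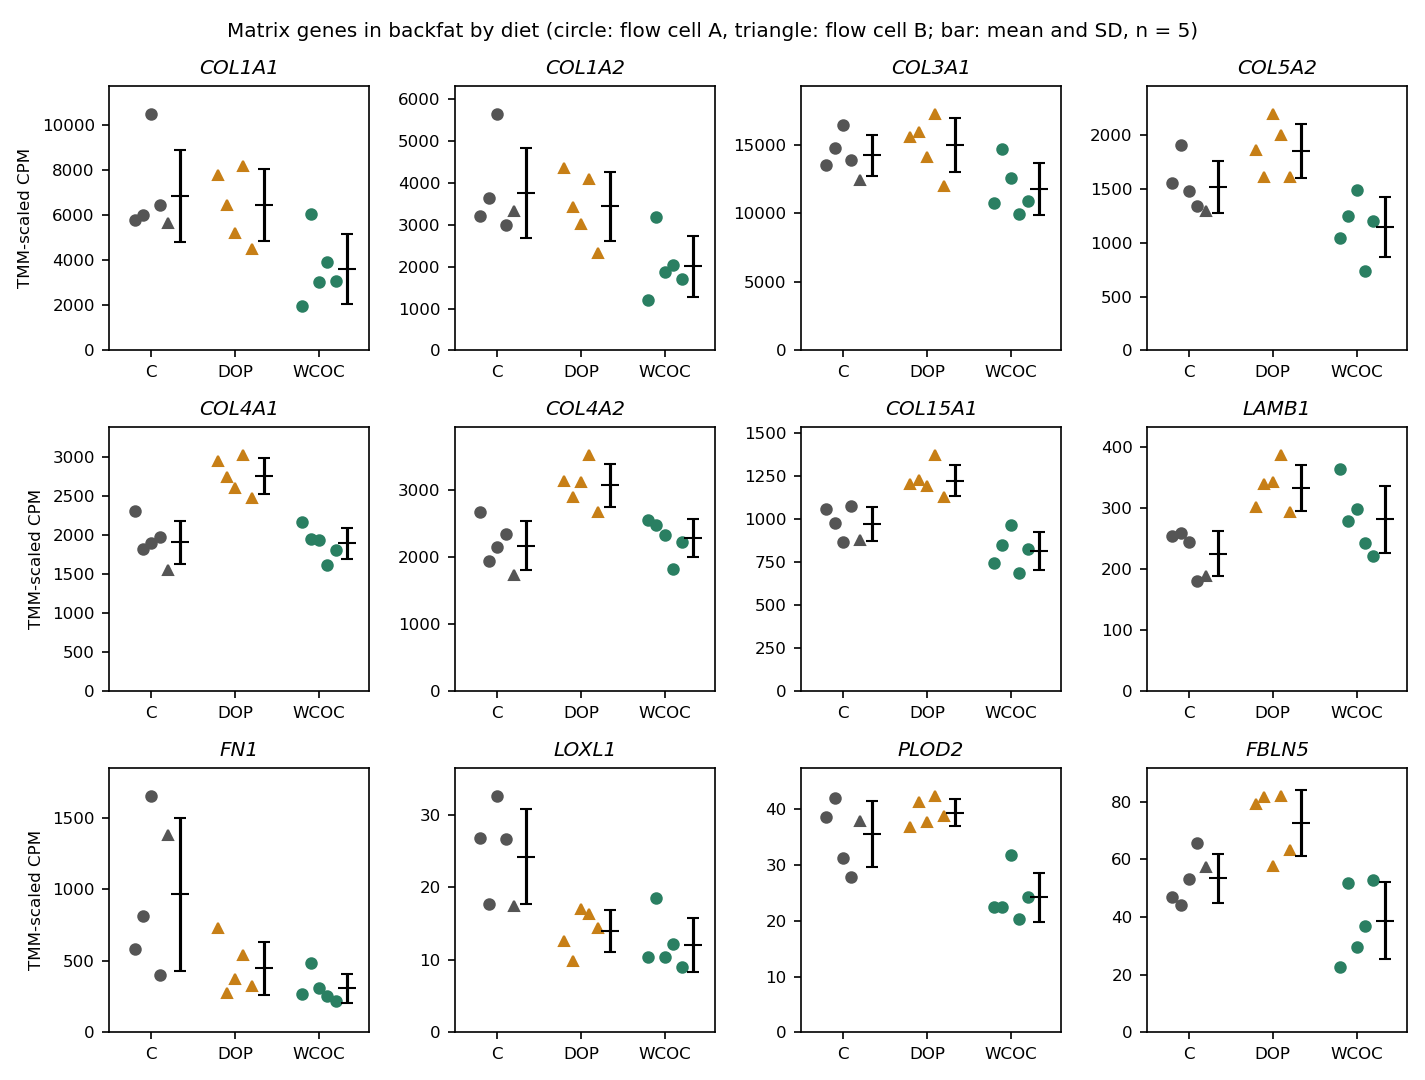
TMM-scaled CPM (vertical axis, starting at 0) of 12 matrix genes in each of the 15 libraries, grouped by diet, with circles for flow cell A, triangles for flow cell B and bars for mean and SD (n = 5). COL1A1 and COL1A2 sat lowest in WCOC apart from WCOC 2, whereas every DOP library lay above every C and WCOC library for COL4A1 and COL15A1.

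A gene was called when edgeR's quasi-likelihood test gave a Benjamini-Hochberg adjusted p under 0.05 over the 14918 genes and the log2 fold change (log2FC) was at least 0.58 in size. In DOP vs. C, 0 of 50 members were called, against a background of 0.764% of genes tested. That background of 114 genes depended on single libraries. It was 0 without C 3, C 5, DOP 2 or DOP 4, 4 without DOP 3, 1 without DOP 5 and 46 without C 4. It was 109 without DOP 1, 119 without C 2 and 200 without C 1, where COL4A1 was called. Leaving out a WCOC library, which is in neither group compared, gave 54 to 100 genes. At an unadjusted p under 0.05 there were 10 members higher and 4 lower, against 9.6% and 7.98% of genes (17.6% together), and DESeq2 called FBN2 higher and FN1 and LOXL1 lower among 495 genes called in all. In WCOC vs. C, 7 of 50 members were called, all lower, against 3.93% of genes called lower (6.25% in both directions), and 23 were lower and 7 higher at an unadjusted p under 0.05, against 13.1% and 13.2% of genes (26.4% together). In WCOC vs. DOP, 6 of 50 were called, again all lower, against 5.11% of genes called lower (7.76% in both directions), and 21 were lower and 2 higher at an unadjusted p under 0.05, against 15.4% and 12.8% of genes (28.1% together). Among all genes tested, the log2FC was below 0 for 47.8% in DOP vs. C, 49.4% in WCOC vs. C and 49.9% in WCOC vs. DOP, where the members had 24, 33 and 38 of 50 below 0. WCOC vs. C and DOP vs. C share their control libraries, so the values of each are given side by side without a measure of likeness. Beside the falls in WCOC vs. DOP, all 8 skeletal muscle markers tested had a log2FC below 0 (median -5.85, 5 called lower), as did 8 of 10 macrophage markers (median -0.68, CD163 called lower), and the part of either in these falls was not tested.

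**Figure D2:**
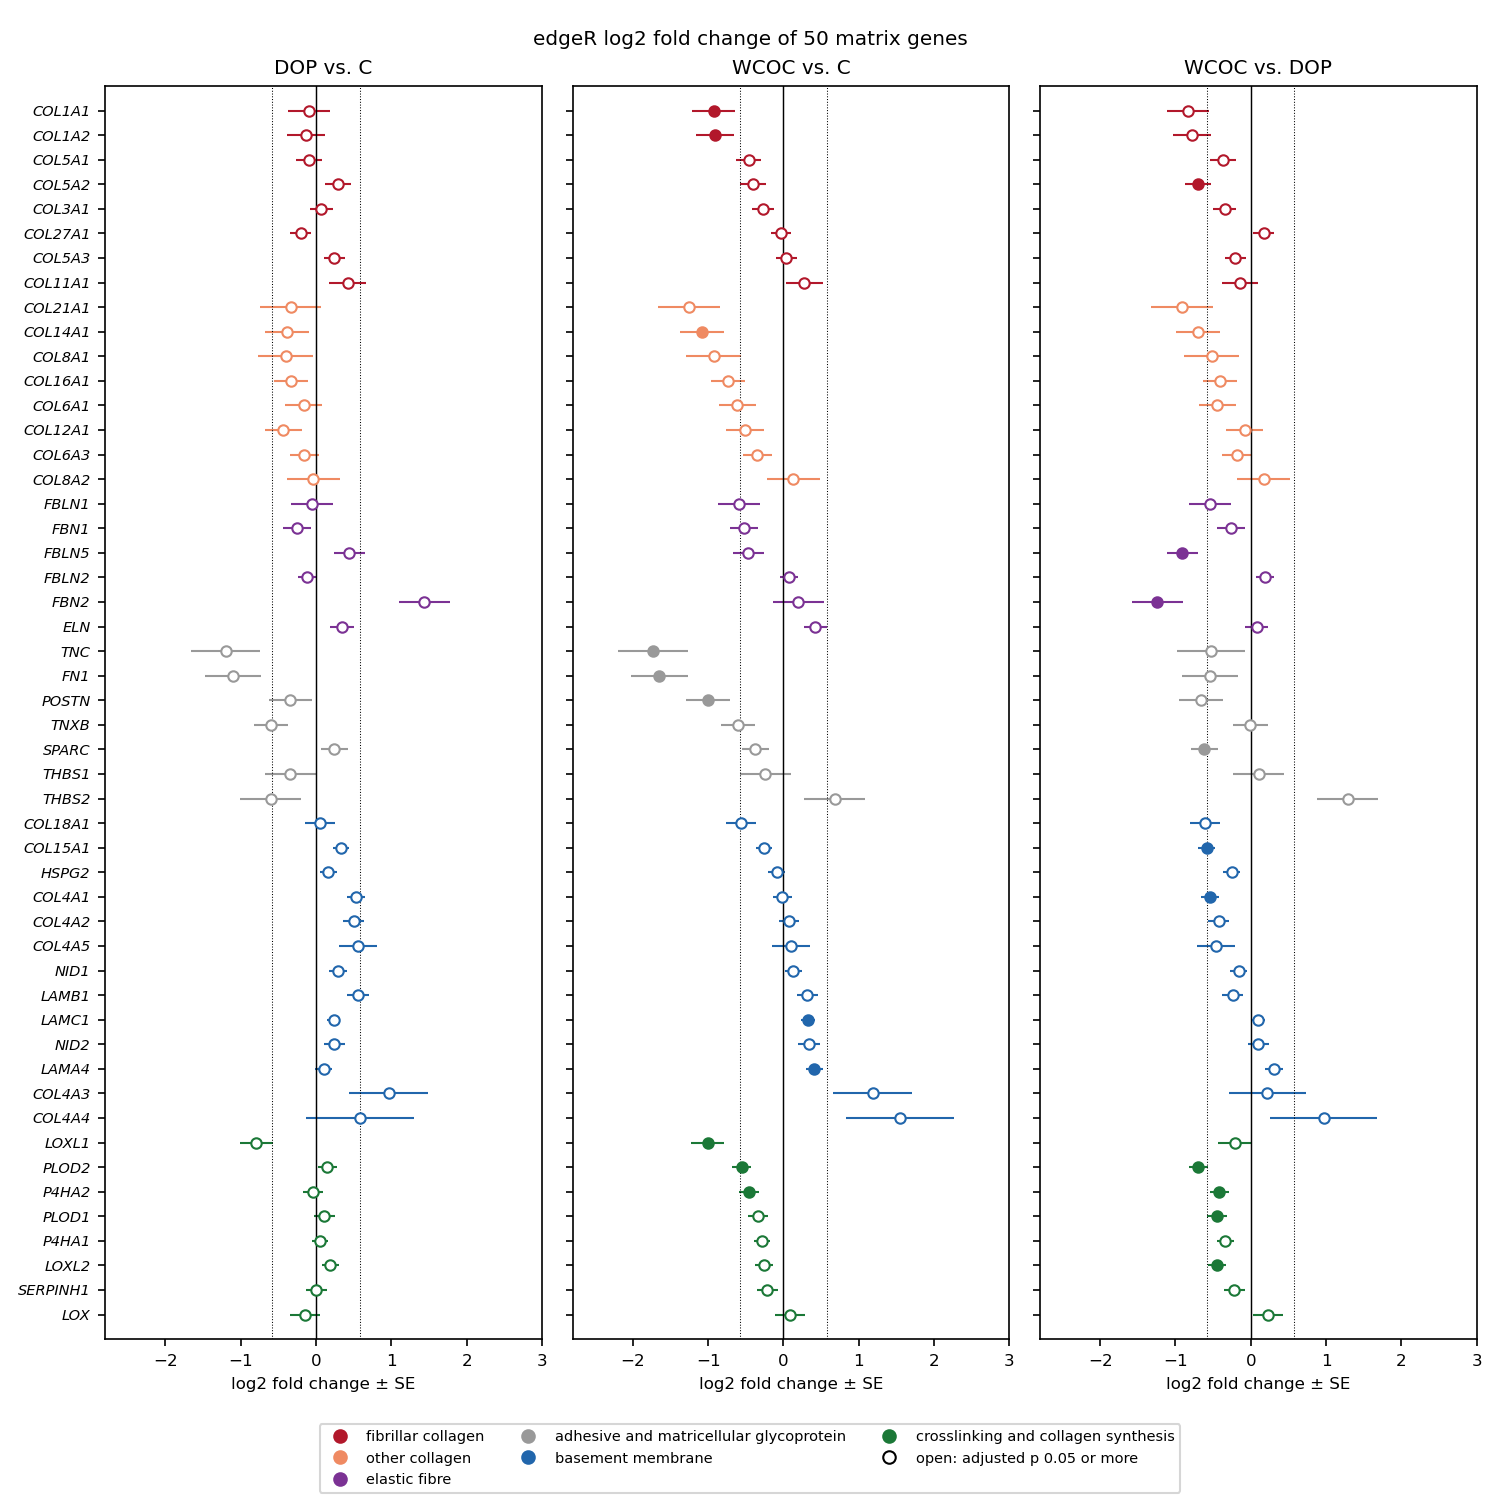
edgeR log2FC with its standard error (horizontal axis) for the 50 members tested, coloured by class and ordered within a class by the WCOC vs. C value, in the 3 comparisons, with filled points for an adjusted p under 0.05 and dotted lines at 0.58 in size. The 13 basement membrane genes all lie right of 0 in DOP vs. C, and filled points of fibrillar collagens, other collagens and glycoproteins in WCOC vs. C all lie left of 0.

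Among the fibrillar collagens, both type I chains fell with the WCOC diet. COL1A1 stood at 5773, 6021, 10490, 6444 and 5643 CPM in the C pigs, at 7810, 6468, 5226, 8216 and 4496 CPM in the DOP pigs and at 1967, 6071, 3029, 3927 and 3071 CPM in the WCOC pigs. WCOC 2 reached the C level and the other 4 WCOC libraries lay below every C library, while C 3 was far above the rest of its group. The WCOC vs. C log2FC was -0.93 (SE 0.28, adjusted p = 0.0483, edgeR) from group means of 6874 ± 2044 and 3613 ± 1540 CPM (SD, n = 5).

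COL1A2 read 3205, 3648, 5639, 2990 and 3336 CPM in C, 4348, 3430, 3024, 4105 and 2316 CPM in DOP and 1199, 3186, 1883, 2051 and 1704 CPM in WCOC. It followed COL1A1, with C 3 the highest and WCOC 2 the only WCOC library inside the C range. Its log2FC was -0.91 in WCOC vs. C (SE 0.25, adjusted p = 0.0362, edgeR) and -0.13 in DOP vs. C (adjusted p = 0.84). In WCOC vs. DOP the type I chains read -0.83 and -0.78 with adjusted p = 0.0628 and 0.0564 (edgeR), so neither was called there.

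COL3A1, which had the most reads of all members, was not called in any comparison against C. Its values were 13540, 14790, 16460, 13910 and 12460 CPM in C, 15570, 15900, 14140, 17220 and 12010 CPM in DOP and 10730, 14660, 12590, 9948 and 10910 CPM in WCOC. The WCOC range overlapped both others, and the log2FC of -0.27 in WCOC vs. C had an adjusted p of 0.258 (edgeR). COL5A2, a type V chain that lies 16177 bases from COL3A1 on the opposite strand, was called in WCOC vs. DOP. It read 1865, 1607, 2194, 1999 and 1607 CPM in DOP against 1047, 1246, 1491, 734 and 1204 CPM in WCOC, with no overlap between the diets (log2FC -0.70, SE 0.17, adjusted p = 0.0207, edgeR). The C libraries, at 1298 to 1908 CPM, spanned the gap, and COL5A2 was not called against C in either comparison.

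The other 4 fibrillar members were not called. COL5A1 and COL5A3 averaged 1437 and 1401 CPM, COL27A1 63.4 CPM and COL11A1 7.16 CPM, and their WCOC vs. C log2FC ran from -0.46 (COL5A1) to 0.28 (COL11A1). The median log2FC of the 8 fibrillar collagens was -0.34 in WCOC vs. C, -0.01 in DOP vs. C and -0.36 in WCOC vs. DOP, where the median over all genes tested was 0.00, 0.01 and 0.00. Summed over the class, the fibrillar collagens ranged from 25010 to 37390 CPM in C, from 23000 to 35010 CPM in DOP and from 17190 to 28200 CPM in WCOC.

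Of the other collagens, 8 of the 11 listed were tested and COL14A1, a collagen that decorates fibril surfaces, was called in WCOC vs. C. It read 253, 245.2, 387.1, 133.9 and 305.7 CPM in C and 85.3, 174.2, 110.9, 132.3 and 124 CPM in WCOC. Only WCOC 2 lay above the lowest C library, and the log2FC was -1.08 (SE 0.29, adjusted p = 0.0312, edgeR). The DOP vs. C log2FC of COL14A1 was -0.38 (SE 0.29, adjusted p = 0.532, edgeR). COL16A1, another collagen associated with fibrils, did not overlap between C (98.1 to 161.8 CPM) and WCOC (42 to 89.3 CPM). Its log2FC of -0.74 had an adjusted p of 0.053 (edgeR) and was not called, and 3 of 50 members in all did not overlap in this comparison, against 7.62% of genes.

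The type VI chains, which form beaded filaments around cells, were the most abundant of this class. COL6A1 averaged 1109 CPM over the 15 libraries and had a log2FC of -0.61 in WCOC vs. C, with an adjusted p of 0.129 (edgeR). COL6A3 read -0.35 in the same comparison with an adjusted p of 0.268. In WCOC vs. C, 7 of the 8 other collagens had a log2FC below 0, with a median of -0.67. In DOP vs. C all 8 were below 0, with a median of -0.33 and a lowest adjusted p of 0.387 (edgeR).

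Elastic fibres are a core of elastin on a scaffold of fibrillin microfibrils, joined by fibulins. None of the 6 elastic fibre genes was called against C by edgeR, and at an unadjusted p under 0.05 there were 3 higher in DOP and 1 higher and 2 lower in WCOC. Over all genes the shares were 9.6% higher in DOP, and 13.2% higher and 13.1% lower in WCOC. In WCOC vs. DOP, FBLN5, a fibulin needed for elastic fibre assembly, fell. It read 79.3, 81.6, 57.6, 81.9 and 63.4 CPM in DOP and 22.6, 51.7, 29.6, 36.9 and 53 CPM in WCOC, without overlap (log2FC -0.91, SE 0.21, adjusted p = 0.0142, edgeR). The C libraries, at 44.2 to 65.6 CPM, overlapped both. FBLN5 lies at 113423629 to 113526412 on the minus strand of chromosome 7, where RefSeq has TRIP11 overlapping it on the same strand, so reads could be shared between both genes.

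FBN2, the fibrillin of developing tissue, was scarce. It read 0.785, 1.41, 1.34, 1.68 and 1.09 CPM in C, 3.17, 3.74, 1.57, 2.25 and 6.45 CPM in DOP and 1.47, 1.69, 1.99, 1.14 and 0.974 CPM in WCOC. DOP 5, the library with the most muscle RNA, was the highest, and DOP 3 lay inside the range of the other diets. The log2FC was 1.44 in DOP vs. C (SE 0.34, adjusted p = 0.0582, edgeR, not called) and -1.24 in WCOC vs. DOP (SE 0.34, adjusted p = 0.0298, called). Without the 4 libraries above 4000 CPM of muscle markers, the WCOC vs. DOP value was -0.71 with an adjusted p of 0.502. FBN1 and FBLN2, the most abundant of the class at 241.2 and 305.7 CPM, were not called in any comparison.

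The adhesive and matricellular glycoproteins held the members with the largest falls in WCOC vs. C. FN1 encodes fibronectin, on which cells assemble new matrix, and lies on chromosome 15 from 117658158 to 117737145 (minus strand). It read 581.3, 812.1, 1650, 398.6 and 1383 CPM in C, 729, 276.2, 373.1, 538.7 and 326.2 CPM in DOP and 271.6, 482.7, 309, 252.2 and 222.8 CPM in WCOC. The C group was the most scattered, with C 3 and C 5 the highest, and WCOC 2 was the only WCOC library above the lowest C library. The log2FC was -1.65 in WCOC vs. C (SE 0.38, adjusted p = 0.0156, edgeR) and -1.1 in DOP vs. C (SE 0.37, adjusted p = 0.152).

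TNC, tenascin C, a glycoprotein of remodelled matrix, read 14, 38.7, 72.4, 21.9 and 57.4 CPM in C and 5.53, 15.1, 11.3, 11.7 and 18.3 CPM in WCOC. C 3 and C 5 were again the highest, and C 1 lay within the WCOC range (log2FC -1.73, SE 0.46, adjusted p = 0.031, edgeR). In DOP, TNC ranged from 8.52 to 34 CPM, with a DOP vs. C log2FC of -1.2 (SE 0.46, adjusted p = 0.195, edgeR). POSTN, periostin, which binds collagen I and supports its crosslinking, read 714.1, 987.9, 1196, 510 and 718.2 CPM in C and 201.4, 471.3, 450.6, 510.1 and 430.9 CPM in WCOC. WCOC 4 and C 4 were level and WCOC 1 was the lowest (log2FC -1.0, SE 0.29, adjusted p = 0.0406, edgeR). The DOP vs. C log2FC of POSTN was -0.34 (SE 0.29, adjusted p = 0.589, edgeR).

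SPARC was called in WCOC vs. DOP and not against C. It read 6479, 6911, 6357, 8368 and 5588 CPM in DOP and 3811, 6014, 4641, 3099 and 4397 CPM in WCOC (log2FC -0.62, SE 0.18, adjusted p = 0.0373, edgeR). WCOC 2 lay above the lowest DOP library, and the C libraries ranged from 4759 to 6824 CPM, with a WCOC vs. C log2FC of -0.37 (adjusted p = 0.2). THBS1, THBS2 and TNXB were not called in any comparison. THBS2, a thrombospondin, was the one glycoprotein with a positive log2FC in WCOC vs. C (0.68, SE 0.40, adjusted p = 0.297, edgeR). Its mean was 457.9 ± 285.8 CPM in WCOC and 187.9 ± 75.5 CPM in DOP (SD, n = 5). DESeq2 called it higher in WCOC vs. DOP.

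Leaving out each of the 10 libraries in turn, FN1 and LOXL1 remained called in WCOC vs. C in 10 of 10 fits, with adjusted p between 0.00861 and 0.047 for FN1 and between 0.00319 and 0.0427 for LOXL1 (edgeR). TNC was called in 5 of the 10 fits, COL14A1 in 4, COL1A2 in 3, POSTN in 2 and COL1A1 in 1. These 5 genes were all lost without C 3, C 5, WCOC 1, WCOC 3 or WCOC 4, and their log2FC stayed below 0 in every fit, for COL1A1 between -1.20 and -0.73. Without WCOC 2, 12 of 50 members were called, all lower, where 1163 of 15081 genes were called in all against 933 with every library. Within flow cell A, which leaves out C 5, LOXL1 was the one member called (log2FC -1.11, adjusted p = 0.0255, edgeR), while COL1A1 read -1.0 (adjusted p = 0.0941) and FN1 -1.49 (adjusted p = 0.0525). In that subset 486 of 14698 genes were called in all.

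Marker genes of several cell types were measured in the same comparison. All 10 macrophage markers had a WCOC vs. C log2FC below 0 (median -1.12), and CD68, CD163, MRC1, MSR1 and AIF1 were called, against 3.93% of genes called lower. Their summed level ranged from 259 to 751.7 CPM in C, from 185.7 to 463.9 CPM in DOP and from 124.7 to 345.2 CPM in WCOC. The libraries with the highest FN1 and TNC in C, C 3 and C 5, had the highest macrophage sums of their group (591.4 and 751.7 CPM). C 2 had the lowest macrophage sum of C (259 CPM) but more FN1 and TNC than C 1 and C 4. Within WCOC, WCOC 2 had the highest macrophage sum and the highest FN1, while TNC was highest in WCOC 5.

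Of 8 fibroblast markers tested, 7 had a WCOC vs. C log2FC below 0 (median -0.59), with DPT called at -0.76. Their summed level ranged from 3104 to 4726 CPM in C, from 1776 to 3786 CPM in DOP and from 2220 to 5334 CPM in WCOC, and WCOC 2 was the highest of all libraries. None of the macrophage markers was at 0 in any library, and of the fibroblast markers only TCF21 was, in 6 libraries. With the mean of the macrophage list or of the fibroblast list as a covariate, 0 of 50 members were called in WCOC vs. C, where 56 and 185 genes in all were still called. The adipocyte markers had a median log2FC of 0.42 in WCOC vs. C, with 6 of 9 above 0 and ADIPOQ called higher, and of 8 myofibroblast and smooth muscle markers none was called (median -0.27). The part of any cell type in the falls of the matrix genes was not tested.

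**Figure D3:**
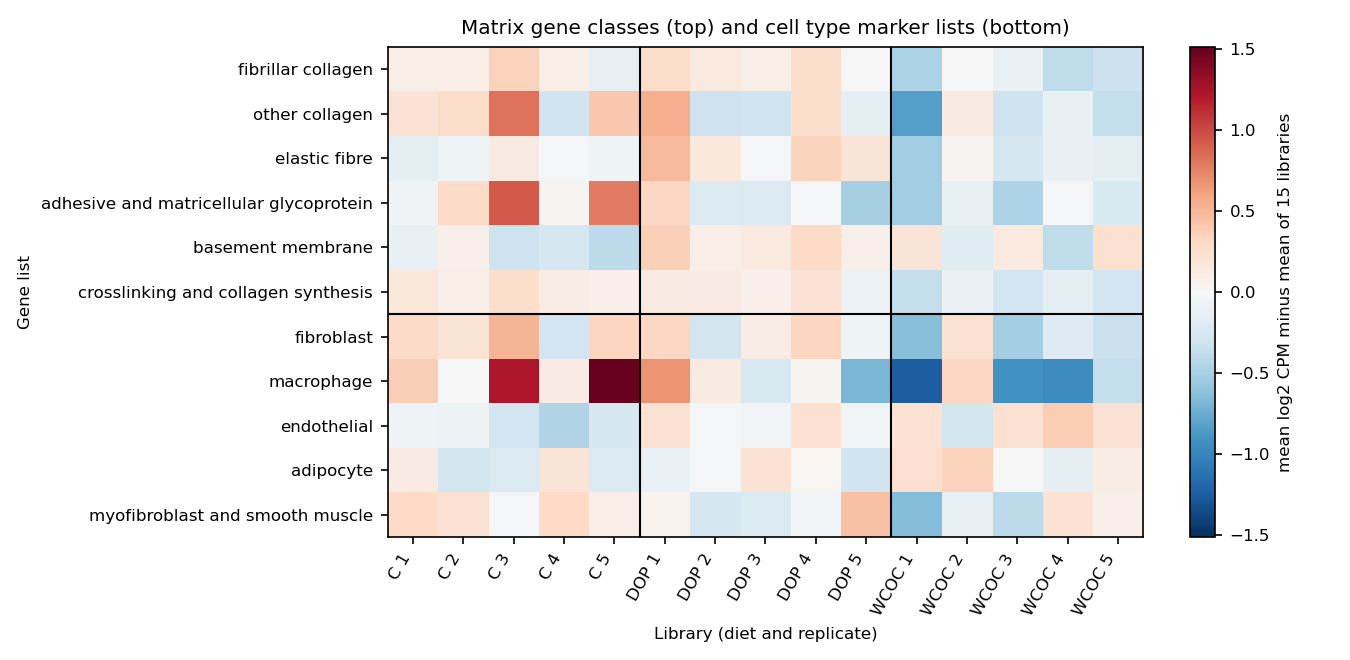
Mean log2 CPM of the 6 matrix gene classes (upper rows) and 5 cell type marker lists (lower rows) in each of the 15 libraries, as the difference from the mean of the 15 (colour scale, log2). C 3 and C 5 are high and WCOC 1 is low for macrophage markers, glycoproteins and other collagens alike, while basement membrane genes are above their mean in the 5 DOP libraries and also in C 2, WCOC 1, WCOC 3 and WCOC 5.

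The basement membrane genes were described next. In DOP vs. C all 13 genes tested had a log2FC above 0, with a median of 0.33, and 7 had an unadjusted p under 0.05, all higher, but none was called. At that unadjusted limit 9.6% of all genes tested were higher in DOP vs. C. Their summed level ranged from 10790 to 13050 CPM in DOP, from 8188 to 10650 CPM in C and from 8306 to 10730 CPM in WCOC, so that by this sum, in which abundant genes weigh most, every DOP library lay above every other library. By mean log2 CPM, in which each gene counts alike, DOP overlapped with WCOC, with 8.13 to 8.41 in DOP and 7.66 to 8.29 in WCOC. The C libraries, at 7.66 to 8.12, lay below every DOP library on this measure too, though only just. Skeletal muscle markers had a DOP vs. C log2FC above 0 in 8 of 8 genes (median 3.41, none called, 4 higher at an unadjusted p under 0.05, edgeR), and without the 4 libraries rich in them, which leaves 2 DOP libraries, the median of the basement membrane genes was 0.35.

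COL4A1 stood at 2308, 1815, 1890, 1966 and 1551 CPM in C, at 2940, 2740, 2599, 3015 and 2471 CPM in DOP and at 2159, 1941, 1939, 1610 and 1802 CPM in WCOC. No DOP library overlapped with another diet, and C 5, the control read on the flow cell of the DOP libraries, was the lowest of the 15. The log2FC was 0.53 in DOP vs. C (SE 0.12, adjusted p = 0.0533, edgeR) and -0.54 in WCOC vs. DOP (SE 0.12, adjusted p = 0.0136), which was under the fold threshold. The WCOC vs. C value was -0.01 (SE 0.12, adjusted p = 0.966). With flow cell as a covariate, which rests on C 5 alone, the DOP vs. C value was 0.83 (adjusted p = 0.0829, edgeR).

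COL4A2 read 2669, 1942, 2144, 2338 and 1736 CPM in C, 3133, 2888, 3110, 3508 and 2660 CPM in DOP and 2547, 2472, 2319, 1823 and 2223 CPM in WCOC. DOP was again the highest group, but C 1 reached the lowest DOP library. Its log2FC was 0.50 in DOP vs. C (SE 0.14, adjusted p = 0.0951, edgeR) and -0.43 in WCOC vs. DOP (SE 0.14, adjusted p = 0.0524).

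COL15A1, a collagen at the border of basement membrane and fibrils, was called in WCOC vs. DOP. It read 1055, 975, 866.6, 1076 and 877 CPM in C, 1200, 1226, 1188, 1368 and 1128 CPM in DOP and 743.4, 848.6, 966.6, 684.3 and 824.7 CPM in WCOC. The DOP libraries lay above all others, and the log2FC was -0.59 in WCOC vs. DOP (SE 0.11, adjusted p = 0.00544, edgeR) and 0.33 in DOP vs. C (SE 0.11, adjusted p = 0.147).

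The laminins join as trimers of alpha, beta and gamma chains. LAMB1 read 254.7, 259.4, 244.2, 181.6 and 189.2 CPM in C and 301.7, 339.7, 343.1, 386.7 and 293.6 CPM in DOP, without overlap (log2FC 0.56, SE 0.14, adjusted p = 0.0759, edgeR). LAMC1 read 640.4, 724.5, 623.4, 644.6 and 680.2 CPM in C and 947, 883.5, 802.4, 761.8 and 763.8 CPM in WCOC, also without overlap. Its WCOC vs. C log2FC was 0.33 (SE 0.09, adjusted p = 0.037, edgeR), and LAMA4, the alpha chain of vessels and fat, read 0.41 (SE 0.12, adjusted p = 0.0386), both under the fold threshold. Members past the adjusted p at any fold were 11 of 50 in WCOC vs. C, 9 lower and these 2 higher, against 10% of genes (5.41% lower and 4.6% higher). In WCOC vs. DOP they were 10 of 50, all lower, against 12.3% of genes (7.2% lower).

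In DOP vs. C 4 of 50 members did not overlap, namely COL4A1, COL15A1, LAMB1 and LOXL1, against 3.47% of genes. In WCOC vs. DOP 8 of 50 did not overlap, all lower in WCOC and 3 of them basement membrane collagens, against 8.9% of genes (4.77% lower). COL4A3 and COL4A4, chains of specialised basement membranes, were scarce, at 1.73 and 6.33 CPM on average, and the highest library, WCOC 5, held 5.69 and 30 CPM. The same library had the highest sum of the epidermis and hair follicle markers, 154.4 CPM, whereas C 2, the highest C library for both chains, had 6.66 CPM. The part of skin in these chains was not tested.

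Endothelial markers were set beside the basement membrane class. Of 9 tested, 8 had a DOP vs. C log2FC above 0 (median 0.36) and none was called by edgeR (5 higher at an unadjusted p under 0.05, against 9.6% of genes, lowest adjusted p = 0.0944). Their sum ranged from 1422 to 1831 CPM in DOP and from 1101 to 1385 CPM in C, with none of the markers at 0 in any library. In WCOC vs. C all 9 were above 0 (median 0.39) with ERG called at 0.64, and the basement membrane genes had a median of 0.13, 9 above 0 and 4 below. The part of vessels in these values was not tested.

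Crosslinking and collagen synthesis genes had a log2FC below 0 in 7 of 8 members in WCOC vs. C (median -0.31) and in 7 of 8 in WCOC vs. DOP (median -0.38). LOXL1, an oxidase that crosslinks elastin, read 26.8, 17.7, 32.5, 26.6 and 17.4 CPM in C, 12.6, 9.81, 17, 16.3 and 14.4 CPM in DOP and 10.4, 18.5, 10.4, 12.1 and 9.03 CPM in WCOC. All DOP libraries lay below the lowest C library, as did 4 of the 5 WCOC libraries. The log2FC was -1.0 in WCOC vs. C (SE 0.22, adjusted p = 0.0139, edgeR) and -0.79 in DOP vs. C (SE 0.22, adjusted p = 0.1). With flow cell as a covariate, which rests on C 5 alone, the DOP vs. C value was -0.32 (adjusted p = 0.768, edgeR).

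PLOD2, the lysyl hydroxylase of the collagen ends, which prepares the residues for crosslinking, read 38.7, 42.1, 31.3, 27.8 and 37.9 CPM in C, 36.7, 41.3, 37.8, 42.3 and 38.8 CPM in DOP and 22.4, 22.5, 31.7, 20.4 and 24.3 CPM in WCOC. WCOC 3 was the only WCOC library within the C range, and none reached DOP. The log2FC was -0.70 in WCOC vs. DOP (SE 0.13, adjusted p = 0.00475, edgeR) and -0.55 in WCOC vs. C (SE 0.13, adjusted p = 0.0159), the latter under the fold threshold.

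P4HA2, a catalytic subunit of prolyl hydroxylase, also stayed under the fold threshold. It ranged from 50.2 to 70.4 CPM in C and from 31.7 to 49.4 CPM in WCOC, with a log2FC of -0.46 (SE 0.13, adjusted p = 0.0378, edgeR). PLOD1 and LOXL2 did not overlap between DOP and WCOC, with log2FC of -0.45 each (adjusted p = 0.044 and 0.0261, edgeR). SERPINH1, the most abundant of the class at 671 CPM, was not called in any comparison, with log2FC of -0.21 in WCOC vs. C (adjusted p = 0.341).

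FBLN5 and PLOD2 in WCOC vs. DOP remained called in 10 of 10 fits with a library left out. COL5A2 was called in 8 (lost without WCOC 1 or WCOC 4), COL15A1 in 7 (lost without these or DOP 4), FBN2 in 5 and SPARC in 4. With flow cell as a covariate, which rests on C 5 alone, 0 of 50 members were called, and in all 14918 genes 1 was. Without the 4 libraries rich in muscle markers, which leaves 2 DOP and 4 C libraries, 0 of 50 were called there, where 50 of 15374 genes were, and 1, PLOD2, in WCOC vs. C, where 421 genes were.

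The wider machinery of collagen assembly was described by 26 further genes of processing and secretion, of which 22 were tested. In WCOC vs. C 16 of them had a log2FC below 0 and 3 were called lower, namely ADAMTS2, the procollagen N-proteinase (-0.80, adjusted p = 0.00525), and P3H3 (-0.59, adjusted p = 0.00816) and P3H4 (-0.71, adjusted p = 0.0151), which belong to the prolyl 3-hydroxylase family (edgeR). In DOP vs. C none was called by edgeR, with 1 higher and 5 lower at an unadjusted p under 0.05, against 9.6% and 7.98% of genes. ADAMTS2 was also called in WCOC vs. DOP (-0.66, adjusted p = 0.0131, edgeR). The share called lower over all genes was 3.93% in WCOC vs. C and 5.11% in WCOC vs. DOP.

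Among 20 genes of TGF-beta signalling, a pathway that raises collagen transcription, LTBP2 was the one called in WCOC vs. C (-1.34, adjusted p = 0.0132, edgeR), and 0 were called in DOP vs. C, with 4 higher and 2 lower at an unadjusted p under 0.05, against 9.6% and 7.98% of genes. Of 17 matrix receptors and collagen uptake genes, ITGA11, a collagen-binding integrin chain, fell with WCOC (-0.84, adjusted p = 0.0469) and ITGA8, an integrin chain of fibronectin receptors, rose (1.81, adjusted p = 0.0361). Of 29 further laminin, collagen and microfibril genes tested, 2 were called higher and 1 lower in WCOC vs. C. LAMA5, a laminin chain, rose (0.59, adjusted p = 0.0141) and EMILIN2, an elastin-associated glycoprotein, fell (-0.92, adjusted p = 0.0145, edgeR). Over these 3 lists, LTBP2, LAMC3 and EMILIN2 were called lower in WCOC vs. DOP, and ITGA8 and MFAP4, a microfibril-associated glycoprotein, were called higher. The share called over all genes was 0.764% in DOP vs. C, 6.25% in WCOC vs. C and 7.76% in WCOC vs. DOP. The calls are therefore given as single genes, not as a trait of a list.

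The levels of collagen genes were compared pair by pair across libraries, where an error in the scaling of a library would add to both genes. Over the 15 libraries, with each diet's mean removed, log2 CPM of COL1A1 and COL1A2 had r = 0.966 and rho = 0.868 (permutation p = 4e-05 and 0.0005, adjusted over 5 pairs 0.0001 and 0.001), and r was 0.961 without the 2 libraries farthest from the median. COL4A1 and COL4A2 had r = 0.942 and rho = 0.932 (permutation p = 3e-05 for both, adjusted 0.0001 and 0.0002), and r = 0.945 without 2 libraries. Both pairs thus varied together within diets across pigs.

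COL4A4 and COL4A3, also head to head, had r = 0.892 and rho = 0.836 (permutation p = 0.001 and 0.002, adjusted 0.002 and 0.003), and r = 0.87 without 2 libraries. COL1A1 and COL3A1, of different fibrillar collagens, had r = 0.741 and rho = 0.714 (permutation p = 0.006 and 0.009, adjusted 0.007 and 0.01), and r = 0.811 without 2 libraries. COL4A1 and COL1A1, of different networks, had r = 0.031 and rho = 0.189 (permutation p = 0.9 and 0.5, adjusted 0.9 and 0.5), and r = -0.084 without 2 libraries. The reads came from a strand-specific protocol and were aligned as such, but the strand setting of the counting is not given in the sources used here. Whether overlapping chains on opposite strands shared reads in the counting is therefore not known.

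**Figure D4:**
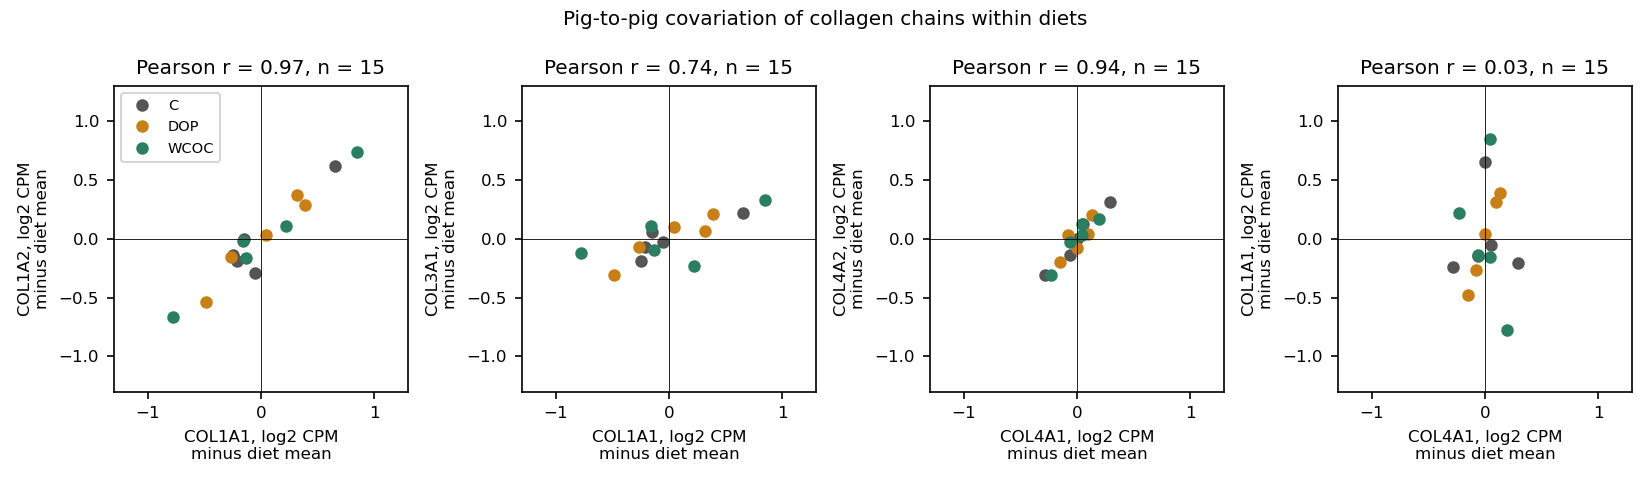
Log2 CPM of 4 pairs of collagen genes in the 15 libraries after subtraction of the diet mean (both axes, log2), coloured by diet. Points of COL1A1 with COL1A2 (r = 0.966) and of COL4A1 with COL4A2 (r = 0.942) lie along a line, and those of COL4A1 with COL1A1 (r = 0.031) do not.

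In ratios of counts within a library the scaling cancels. The log2 ratio of COL1A1 to COL1A2 counts averaged 0.87 ± 0.15 among C, 0.90 ± 0.09 among DOP and 0.82 ± 0.12 among WCOC libraries (SD, n = 5). The differences between diets were at most 0.08 in size, with adjusted exact permutation p of 0.437 to 0.697 over 15 ratio comparisons. The log2 ratio of COL1A1 to COL3A1 averaged -1.09 ± 0.25 among C, -1.24 ± 0.20 among DOP and -1.79 ± 0.49 among WCOC libraries. WCOC was lower than C by 0.614-fold, with an exact permutation p of 0.0159 (two-sided, n = 5 per diet) that did not pass adjustment (0.119).

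COL4A1 to COL1A1 averaged -1.82 ± 0.42 among C, -1.19 ± 0.25 among DOP and -0.84 ± 0.68 among WCOC libraries on the log2 scale. It was 1.54-fold higher in DOP than in C (exact permutation p = 0.0238, n = 5, adjusted 0.119) and 1.97-fold higher in WCOC than in C (exact permutation p = 0.0159, n = 5, adjusted 0.119). No ratio comparison passed adjustment, and the smallest p that 5 against 5 libraries allow is 0.00794. Over 15 comparisons, a single ratio at that p could not reach an adjusted p under 0.05. A miss of the adjustment therefore does not show that a ratio was equal between diets.

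**Figure D5:**
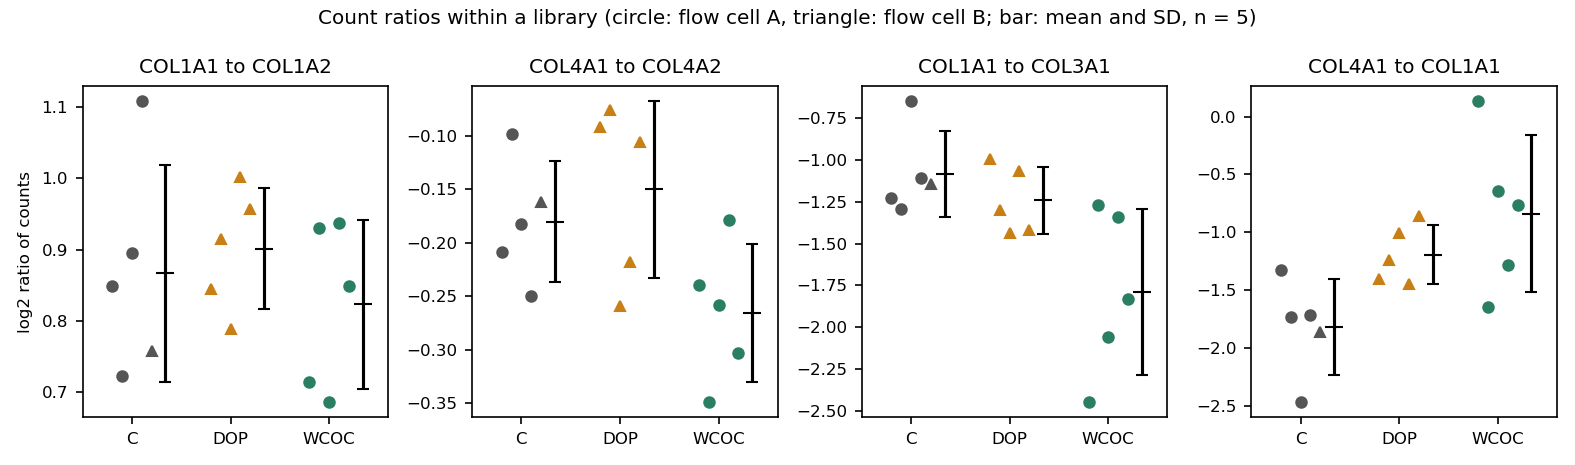
Log2 ratio of counts of 2 collagen genes within a library (vertical axis, scaled separately in each panel) by diet, with circles for flow cell A, triangles for flow cell B and bars for mean and SD (n = 5). The COL1A1 to COL1A2 ratio overlaps fully between diets, and the COL4A1 to COL1A1 ratio has its lowest mean in C (-1.82) and its highest in WCOC (-0.84).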

How the data were processed

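RNA of backfat was sequenced in 15 libraries, 5 pigs per diet. The authors aligned the reads to Sscrofa11.1 with HISAT2 (after FastQC) and the deposited values are HTSeq counts per Ensembl gene, neither normalized nor pooled. The annotation release and the strand option of the counting are not given in the sources used here. Counts outside genes (23.4% to 32.8% of a library) stayed out of all steps.

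The diets were compared with edgeR 4.0.16 in R 4.3.3 (filterByExpr, TMM, quasi-likelihood, 1 mean per diet over 15 libraries, two-sided, Benjamini-Hochberg), with a log2FC threshold of 0.58 as in the study, with a prior count of 1 for log2 CPM. The fit was first tested on simulated data. DESeq2 1.42.0, limma 3.58.1, other filters and scalings, covariates, a replicate block, flow cell subsets and leaving out each library were the alternatives. Ratios were compared by exact permutation and correlations with 100000 permutations. Positions and sequences are from RefSeq for Sscrofa11.1, read with Python 3.11.15.

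The members and lists were chosen with earlier results of these data known. Members named in full are the 2 most abundant of each class and those called or without overlap in any comparison. The p-values measure the spread between pigs of 1 pen per diet. The COL6A1 to COL6A2 ratio could not be run, since COL6A2 was not matched. Single items withheld from this text are not reported here.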

Additional observations from a re-analysis of the deposited data

Results flagged for a closer look

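Of 174 groups of 5 libraries, from the 51 members, the 6 class sums and the sum of all members in 3 diets, 13 held a library whose gap to its nearest neighbour exceeded Dixon's limit for 5 samples. For independent, normally distributed values that limit flags about 1 group in 20. CPM need not be normally distributed and members varied together, so the 13 flags cannot be read against that rate. In C 3 the type I chains stood apart, COL1A1 at 10490 CPM (next 6444) and COL1A2 at 5639 CPM (next 3648), as did COL16A1 at 161.8 CPM (next 108.3) and P4HA2 at 70.4 CPM (next 55.5). C 3 also held 4610 CPM of skeletal muscle markers. The WCOC vs. C calls of COL1A1, COL1A2, COL14A1, POSTN and TNC were lost without C 3, and likewise without C 5, WCOC 1, WCOC 3 or WCOC 4.

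In C 2 the scarce chains COL4A3, at 2.09 CPM (next 0.828), and COL4A4, at 8.07 CPM (next 3.19), stood apart. In WCOC 5 COL4A4 stood at 30.0 CPM (next 8.91), beside the highest sum of epidermis markers of the 15 libraries (154.4 CPM).

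COL11A1 was high in DOP 5 at 13.8 CPM (next 7.43), the library with 57120 CPM of skeletal muscle markers. In WCOC 1 the lowest values stood apart, POSTN at 201.4 CPM (next 430.9) and COL8A2 at 0.687 CPM (next 1.44). COL10A1 was flagged in C 3, DOP 5 and WCOC 2 at 0.0319, 0.0349 and 0.0374 CPM, which is 1 count in each. With no count in the other libraries of each diet, these flags were fixed in advance.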

How the results depend on the processing

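The 24 pairs of member and comparison that were called or did not overlap kept their direction in all 764 alternative values, of which 137 lost the call and 11 gained one. LOXL1 in DOP vs. C went from -0.79 to -0.32 in log2FC with flow cell as a covariate, which in every comparison rests on C 5 alone. In DOP vs. C, DESeq2 called 1 member higher and 2 lower, where 495 genes were called in all. Leaving out a library gave 0 to 1 higher, where 0 to 200 genes were called. In WCOC vs. C, 7 members were called lower against 2 with flow cell as a covariate, 1 in flow cell A alone, 0 in lane 2 of that flow cell, 2 with the adipocyte list, 0 with the macrophage list and 0 with the fibroblast list as a covariate, and 1 without the 4 libraries rich in muscle markers, the fibroblast covariate and this subset being chosen after the data were seen. Genes called in all were 933 in the main fit, 680 with flow cell, 486 of 14698 in flow cell A and 34 of 14696 in lane 2. They were 821, 56 and 185 with the adipocyte, macrophage and fibroblast lists, and 421 of 15374 without the 4 libraries. Without a fold threshold 2 members were higher in WCOC vs. C. Leaving out a library gave 2 to 12 members lower there, where 468 to 1163 genes were called in all. In WCOC vs. DOP, 6 were called lower against 0 with flow cell as a covariate, 0 without the 4 libraries and 10 without a fold threshold, 1 was called higher (THBS2) by DESeq2 and with at least 10 counts in every library, and leaving out a library gave 2 to 9 lower and 0 to 1 higher. Genes called in all were 1158 in the main fit, 1 with flow cell, 50 of 15374 without the 4 libraries and 1842 without a fold threshold. They were 1424 by DESeq2, 941 of 13118 with at least 10 counts and 639 to 1291 on leaving out a library. The cause of these changes was not tested.

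With the replicate number as a block, no member was called in DOP vs. C, 1 was in WCOC vs. C (LOXL1) and 4 were in WCOC vs. DOP (COL5A2, FBLN5, COL15A1 and PLOD2). Of all 14918 genes, 0, 473 and 561 were called in these comparisons, so the DOP vs. C count tells nothing of the members. Libraries that share a number did not pair, since their deviations correlated between -0.495 and 0.345 and 0, 2 and 2 of 10 libraries correlated best with their own number.

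Class medians of log2FC moved by more than their spread between replicates as follows. With flow cell as a covariate, which rests on C 5 alone, fibrillar collagens read 0.29 and glycoproteins -1.08 in DOP vs. C, and in WCOC vs. DOP fibrillar collagens read -0.78, glycoproteins 0.11, basement membrane genes -0.52 and crosslinking genes -0.56. With the macrophage list, fibrillar collagens read 0.17 in DOP vs. C, in WCOC vs. C other collagens read -0.15, elastic fibre genes -0.018, glycoproteins -0.17 and crosslinking genes -0.21, and in WCOC vs. DOP elastic fibre genes read -0.19, glycoproteins 0.15 and crosslinking genes -0.27. With the fibroblast list, other collagens read -0.10 in WCOC vs. C, and in WCOC vs. DOP other collagens read 0.027, elastic fibre genes -0.10 and glycoproteins 0.090. Glycoproteins read -0.25 in DOP vs. C without the 4 libraries, and crosslinking genes -0.44 in WCOC vs. C in lane 2. Leaving out a library gave -0.64 to -0.16 for glycoproteins in WCOC vs. DOP. Within that spread, other collagens in DOP vs. C (-0.33) read -0.016 with the macrophage list, -0.13 with the fibroblast list, -0.051 without the 4 libraries and -0.20 without C 3 or DOP 2. Elastic fibre genes in DOP vs. C (0.15) read 0.31 with the macrophage list and 0.050 to 0.21 on leaving out a library. Basement membrane genes in WCOC vs. C (0.13) read 0.065 without WCOC 1, 0.28 without C 1 and 0.074 with the adipocyte list. Leaving out a library took fibrillar collagens (-0.064 to 0.11) and crosslinking genes (-0.024 to 0.077) across 0 in DOP vs. C.

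Of the ratios, COL1A1 to COL1A2 crossed 0 on leaving out a library, between -0.001 and 0.10 in DOP vs. C and between -0.079 and 0.017 in WCOC vs. C, as did COL4A4 to COL4A3 in WCOC vs. C, between -0.070 and 0.30. Of 57 further pairs of named member and comparison, neither called nor without overlap, 19 changed sign under at least 1 alternative and 7 were called under at least 1.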
